A study of Caenorhabditis elegans with 2 samples.

Results

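ZTF-25 binding was mapped by chromatin immunoprecipitation and sequencing (ChIP-seq) in whole young adult Caenorhabditis elegans aged 63 hours. The peaks described here are the 390 of 1368 peaks in the deposited combined list that overlapped, by even 1 bp, no peak of the deposited conservative list. They are called the combined-only peaks below, and the 1092 peaks of the conservative list are what they are set against. The other 978 combined peaks overlapped a conservative peak, and 112 conservative peaks overlapped no combined peak.

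Both samples, labelled biological replicates 1 and 2, came from strain RW12287, whose endogenous ztf-25 gene carries the CRISPR insertion st12287[ztf-25::TY1::EGFP::3xFLAG] V. The worms had been starved as L1 larvae after bleaching, and the precipitation used an antibody to GFP according to the description, while the antibody tag names ztf-25 itself. All cells of the animal contributed chromatin, so a peak does not say in which tissue the protein was bound. The series holds no second condition, and no comparison between conditions was made. The peak list deposited for replicate 1 held 515 peaks and that for replicate 2 held 295 peaks.

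ZTF proteins are predicted zinc finger transcription factors of the worm. RNA polymerase III transcribes the transfer RNA (tRNA) genes from promoters that lie inside the genes, the A box and the B box, of which the B box begins with a conserved stretch written GGTTCGA or GGTTCAA on the gene's strand. The irreproducible discovery rate (IDR) ranks a peak by how well its rank repeats between 2 peak calls, with low values for peaks that repeat.

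The sequences that follow belong to the combined-only peaks with the highest signals. They are shown because the strongest of these peaks fell on small noncoding RNA genes and on a few protein-coding promoters. Genes are given whole, on their own strand, and promoter peaks as the summit base with 50 bases to either side, on the plus strand, all from the RefSeq assembly GCF_000002985.6 (WBcel235, the same as ce11). Capitals in the tRNA genes mark GGTTCGA or GGTTCAA, and the single capital in a promoter window marks the summit base.
D1009.t1, tRNA-Gln, chrX:8925641-8925712, plus strand: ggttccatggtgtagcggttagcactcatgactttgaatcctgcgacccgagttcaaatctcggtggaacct
T08A9.t1, tRNA-Ala, chrX:7323753-7323824, plus strand: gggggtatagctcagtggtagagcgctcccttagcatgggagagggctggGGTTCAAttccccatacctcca
C05G6.t1, tRNA-Val, chrIV:620482-620554, plus strand: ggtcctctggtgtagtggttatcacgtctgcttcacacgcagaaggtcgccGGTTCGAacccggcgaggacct
Y55F3BR.9, small nucleolar RNA, chrIV:867056-867133, minus strand: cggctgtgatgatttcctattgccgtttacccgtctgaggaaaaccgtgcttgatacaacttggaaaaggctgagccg
C09E7.7 promoter window, chrIII:6551322-6551422, plus strand: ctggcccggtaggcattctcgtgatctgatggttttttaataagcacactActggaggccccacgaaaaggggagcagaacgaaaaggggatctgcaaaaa
F44E5.4 promoter window, chrII:11759393-11759493, plus strand: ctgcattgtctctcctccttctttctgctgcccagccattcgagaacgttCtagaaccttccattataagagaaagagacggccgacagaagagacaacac
wapl-1 promoter window, chrIV:4445785-4445885, plus strand: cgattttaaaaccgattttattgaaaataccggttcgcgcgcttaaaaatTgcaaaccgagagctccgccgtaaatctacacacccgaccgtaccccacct

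What the ranked list behind the combined list compared is not given in the sources used here, and it was matched to the combined list by its IDR values. Combined-only peaks had IDR values of 0.000370 to 0.009997 in it, with a median of 0.00654. In the ranked list that sets the libraries against each other, 383 of the 390 had an entry, and their IDR ran between 0.01003 and 0.761 with a median of 0.0219. None of the 383 was at 0.01 or lower, which is where every conservative peak lay. The largest group, 173 peaks, was just past that limit at 0.01 to 0.02. A further 127 lay at 0.02 to 0.05, 34 at 0.05 to 0.1 and 49 above 0.1.

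The values nearest the limit show how little separates its sides. The combined-only peak with the lowest library IDR, 0.01003, lay 4594 bp from the start of gadr-4 and had signals of 40.2 in column 15 and 33.8 in column 19. The next was 174 bp upstream of aman-2, which encodes a Golgi mannosidase, at an IDR of 0.01005 with 44.6 and 31.5. The conservative peaks just inside the limit had IDR values of 0.009996, 0.009980 and 0.009964, with 43.5, 36.3 and 45.8 in column 15 and 32, 38.2 and 31.2 in column 19. These values were part of what put a peak in one list or the other, so they are a description and carry no test.

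By the authors' own signal, the combined-only peaks were the weaker ones, with a median of 73.9 against 93.9 for conservative peaks. Their highest value was 137 against 422, and 18 of the 390 exceeded the conservative median. Columns 15 and 19 of the ranked list give the signal of each library, and the file does not say which replicate each column holds. Column 15 had a median of 43.3 (2.80 to 107.9) at combined-only peaks and 53.1 (32.5 to 247.8) at conservative peaks. Column 19 had a median of 28.4 (9.19 to 67.3) at combined-only peaks and 42.6 (28.3 to 178.3) at conservative peaks. The distance between the lists was thus wider in column 19.

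Column 15 exceeded column 19 at 283 of 383 combined-only peaks (73.9%) and at 850 of 1092 conservative peaks (77.8%), so the columns leaned the same way in both lists. The size of the lean differed: the ratio of column 15 to column 19 had a median of 1.55 at combined-only peaks against 1.25 at conservative peaks. It exceeded 2 at 114 combined-only peaks (29.8%) against 66 conservative peaks (6.04%). Column 19 alone lay below the lowest conservative value at 181 combined-only peaks (47.3%), column 15 alone at 65, both at 8 and neither at 129. Most combined-only peaks therefore had a low value in 1 library, and 33.7% of them were low in neither.

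**Figure D1:**
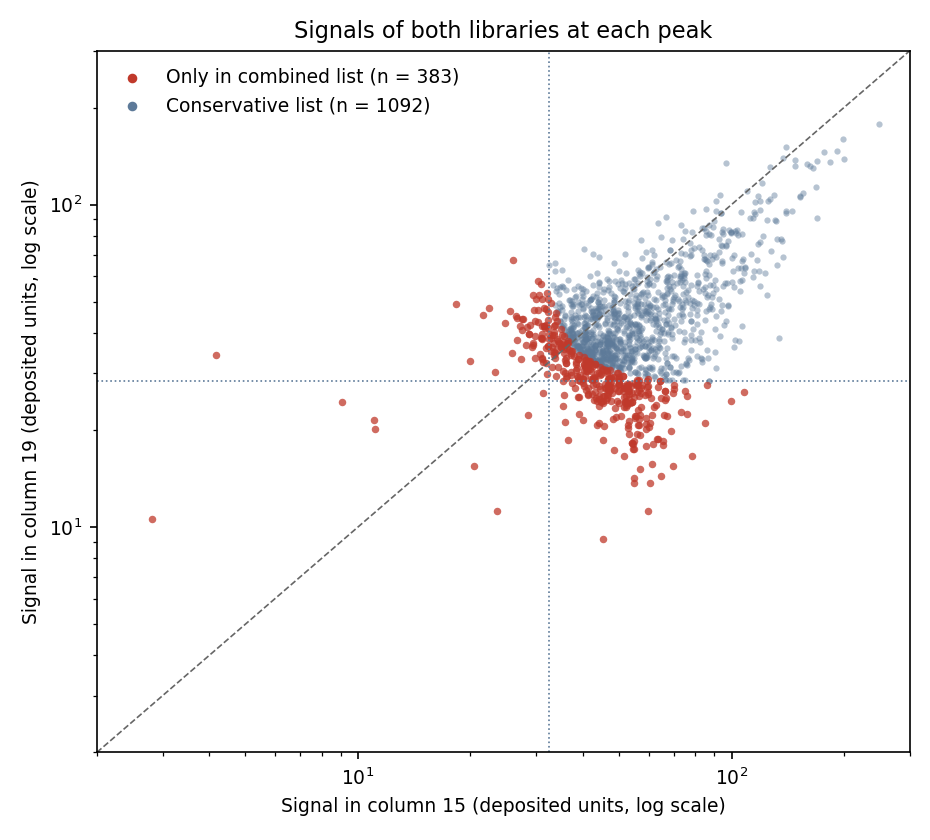
Signal in column 15 (x axis) and column 19 (y axis) of the ranked list, both on log scales, for 383 combined-only and 1092 conservative peaks. Each point is a peak, the dashed line marks equal signals and the dotted lines mark the lowest conservative value of each column, 32.5 and 28.3; the clouds overlap, with 129 combined-only points past both lines, 181 under the horizontal line alone and 65 left of the vertical line alone.

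The replicates' own lists show the same imbalance by name. Combined-only peaks overlapped a peak in the list of replicate 1 in 62 cases (15.9%) and in that of replicate 2 in 5 cases (1.28%), and none overlapped both. Among conservative peaks, 436 (39.9%) were in the list of replicate 1, 274 (25.1%) in that of replicate 2 and 213 in both. A total of 323 combined-only peaks (82.8%) and 595 conservative peaks (54.5%) were in neither. Of the 62 in the list of replicate 1, 60 had library signals, and column 15 was the higher one in all 60. All 5 in the list of replicate 2 had the higher value in column 19.

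The strongest combined-only peak, at chrIII:6551234-6551509, had a signal of 137 and values of 107.9 in column 15 and 26.3 in column 19. Its summit was 129 bp upstream of C09E7.7, a protein-coding gene with no named function here, and it lay 167 bp from a conservative peak. D1009.t1, a tRNA-Gln gene with a sequence found once among the annotated tRNA genes, had a signal of 126, with 99.4 and 24.7. The peak near F44E5.4 and F44E5.5, which RefSeq annotates as Hsp70 chaperones, had 112, with 85.9 and 27.5. In each of these the column 15 value was above the conservative median of 53.1 and the column 19 value was below the lowest conservative value of 28.3.

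Among the strongest 12 were also the snoRNA gene Y55F3BR.9 (signal 109, with 85.1 and 21), the tRNA genes T08A9.t1 (107, with 64.2 and 28.3), ZK154.t3 (106, with 76.0 and 22.4) and C05G6.t1 (103, with 69.7 and 26.1). A peak with 109 covered the piRNA gene 21ur-7377, with F36H12.5 as the nearest protein-coding start at 1669 bp. One with 101 lay between htz-1, which encodes the histone variant H2A.Z, and wapl-1, which encodes a cohesin release factor, 95 bp upstream of wapl-1. Another 2 had no entry in the libraries' ranked list, one over the tRNA-Glu gene rte-1 (signal 127) and one 3922 bp downstream of the nearest protein-coding start, that of the acyltransferase gene oac-9 (103). Column 15 was the higher column at each of the peaks named here that had both values.

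The most lopsided peaks ran in both directions. The largest ratio of column 15 to column 19, 5.33, came from 59.9 and 11.2 at a peak between adr-1, related to RNA-editing adenosine deaminases, and nsf-1, a vesicle fusion ATPase. The second, 4.94, came from 45.4 and 9.19 in a coding exon of hsp-1, the constitutive Hsp70, close to the snoRNA gene F26D10.24. The smallest ratio, 0.122, came from 4.18 and 34.2 in a coding exon of the polyubiquitin gene ubq-1. A second combined-only peak in ubq-1 shared the column 19 value of 34.2 and had 33.6 in column 15, so the low ratio belonged to 1 of 2 neighbouring peaks. The next smallest ratios were 0.265 near W01D2.3 (2.80 and 10.6) and 0.372 in an intron of the apical junction gene ajm-1 (18.3 and 49.1). The ajm-1 summit lay between the tRNA genes H08J11.t5, 29 bp away, and H08J11.t1, 103 bp away.

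Some combined-only peaks shared their library values with another. A total of 16 formed 8 pairs with the same values in both columns, such as the pair inside the lincRNA gene linc-90 with 54 and 24.4 each but combined-list signals of 76.1 and 2.01. Of the 17 combined-only peaks with a signal under 50, 10 had another peak of the combined list within 200 bp. A conservative peak lay within 1000 bp of 34 combined-only peaks (8.72%), the nearest being 29 bp away in an intron of ldb-1 (LIM domain binding), 85 bp away at the tRNA gene F22F1.t4 and 165 bp away at the ribosomal protein gene rpl-17. For the rest the distance was long, with a median over all 390 of 27523 bp. On the other side of the overlap rule, the combined peak with the smallest overlap shared 65 bp with a conservative peak at pcyt-2.1 and had a signal of 20.7. The next smallest overlaps, 69 bp between lmtr-3 and atp-5 and 71 bp in brd-1, were the whole width of narrow peaks with signals of 153 and 172, so these were shared in full.

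tRNA genes, which supply the adaptors of translation, were less often met among combined-only peaks. A tRNA gene lay within 200 bp of the summit at 46 combined-only peaks (11.8%, exact 95% interval 8.77 to 15.4%) against 294 conservative peaks (26.9%, 24.3 to 29.7%). The share was lower among combined-only peaks (two-sided Fisher's exact test, adjusted p = 1.75e-09 over 9 classes). Small nucleolar RNA (snoRNA) genes, whose products guide the modification of ribosomal RNA, were at 3 combined-only peaks (0.769%) against 59 conservative peaks (5.40%), also a lower share (adjusted p = 5.57e-05, exact test). Peaks are not replicates of an animal, so these p-values cover the counting of peaks only.

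Both differences were smaller against weaker conservative peaks. Against the 546 conservative peaks with the lowest signals, the tRNA share was 11.8% against 15% (adjusted p = 0.531, exact test) and the snoRNA share 0.769% against 2.56% (adjusted p = 0.432, exact test), so neither call held. Within the list of replicate 1 the tRNA shares were 22.6% of 62 combined-only and 38.1% of 436 conservative peaks (adjusted p = 0.151, exact test), and in that of replicate 2 they were 2 of 5 and 96 of 274. The snoRNA call was also lost with only summits inside the gene counted, 1 against 8 peaks (adjusted p = 0.734, exact test). Across 4 equal bins of the conservative list, in order of increasing signal, the tRNA share was 10.3%, 19.8%, 39.2% and 38.5%. The combined-only share lay nearest that of the lowest bin. The snoRNA share was 2.93%, 2.20%, 3.66% and 12.8% over the same bins, high in the last one alone, and the combined-only 0.769% was below each of them. Within the combined-only peaks the order was alike, with 33 of 195 peaks at tRNA genes (16.9%) among the stronger peaks and 13 of 195 (6.67%) among the weaker. Against the 112 conservative peaks that overlapped no combined peak, of which 7.14% were at tRNA genes, the direction turned (adjusted p = 0.674, exact test). Median signals were 73.9 for the combined-only peaks, 93.9 for the whole conservative list and 74.3 for these 112 peaks. The part played by signal strength was not tested.

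**Figure D2:**
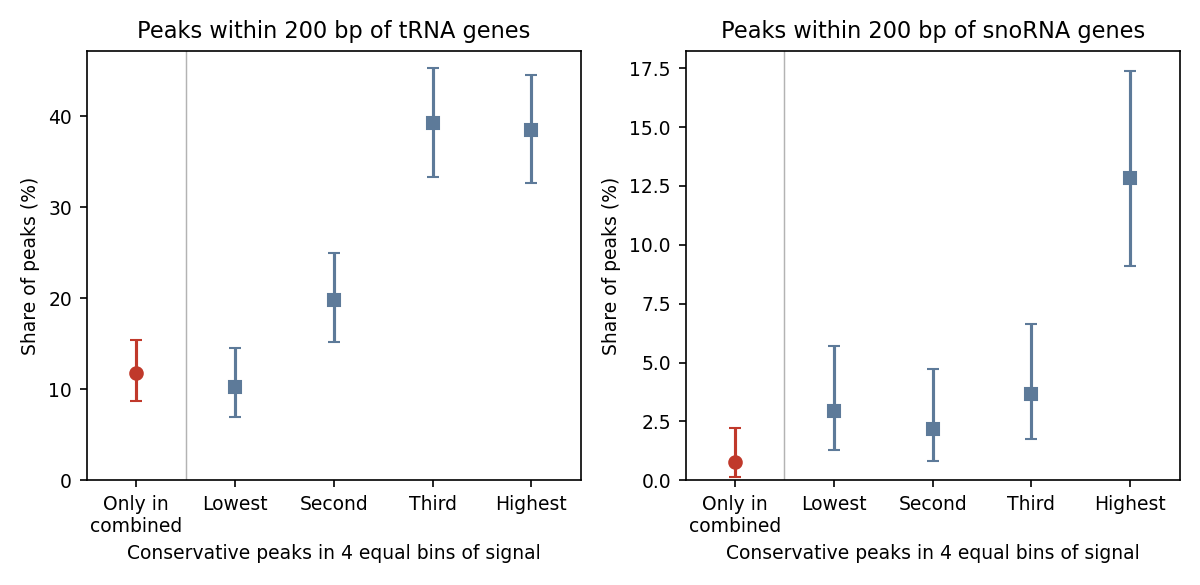
Share of peaks (%) with a tRNA gene (left) or a snoRNA gene (right) within 200 bp of the summit, for the 390 combined-only peaks and for 4 equal bins of the conservative list by signal, 273 peaks each. Bars are exact 95% binomial intervals; the combined-only tRNA share of 11.8% is next to the 10.3% of the lowest bin, and the snoRNA share of 12.8% is that of the highest bin.

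Summits sat at the genes themselves. At tRNA genes the combined-only summit lay at a median of 16 bp past the first base of the gene (the middle 50% of summits lay between −14.3 and 32.5 bp), and 30 of 46 (65.2%) lay inside the gene. At conservative peaks the median was 23 bp and 236 of 294 (80.3%) lay inside. The gene shares behind these figures were 53 of the 612 annotated tRNA genes (8.66%) near a combined-only peak and 314 (51.3%) near a conservative one. No tRNA gene had both, and the rule that picked the combined-only peaks leaves little room for one.

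The isotypes were spread widely. Glutamine tRNA genes came first with 8 of 27 near a combined-only peak, against 6 of 27 near a conservative one. Alanine and asparagine followed with 5 each, of 34 and 20 genes, against 16 and 7 near a conservative peak. Arginine, glutamate, glycine and serine had 4 each, of 44, 41, 55 and 39 genes, against 24, 26, 33 and 18. Histidine, phenylalanine and tyrosine had none of their 20, 14 and 19 genes, against 10, 8 and 8. Over all tRNA genes the combined-only share was 8.66%, so these counts are small ones. Genes that share 1 peak each count, such as the glutamine genes H35N09.t1 and H35N09.t2 and the asparagine genes F57G8.t1 and F57G8.t4. The only tRNA gene annotated for selenocysteine, K11H12.t1, singled out here after its values were seen, was near a combined-only peak with a signal of 74.5 and library signals of 51.4 and 27.1. Of the tRNA genes near combined-only peaks, 10 had a sequence that no other annotated tRNA gene shares, while that of T08A9.t1 occurs in 15 genes. How reads were placed among such copies is not given in the sources used here.

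At tRNA genes the columns lay further apart than elsewhere. Combined-only peaks at tRNA genes had medians of 53 in column 15 and 26.8 in column 19, against 42.2 and 28.7 at other combined-only peaks. Column 15 was the higher value at 41 of 45 (91.1%). Turned round, 25 of the 114 combined-only peaks with a ratio over 2 were at tRNA genes (21.9%), against 16 of 169 with a ratio of 1 to 2 (9.47%) and 4 of 100 at 1 or lower (4%). Conservative peaks had shares in the same order, with 47.0%, 27.0% and 21.1%.

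A single word, the start of the B box, differed in frequency between the lists. Of all words of 7 bases, counted on both strands within 50 bases of each summit, GGTTCGA alone had a share that differed after adjustment, at 21 combined-only windows (5.38%) against 179 conservative windows (16.4%; Fisher's exact test, adjusted p = 6.01e-05). That is 1 word less frequent in combined-only windows, 0.0122% of the words tested, and 0 words more frequent (0%). Against the 546 weakest conservative peaks, and within the list of either replicate, 0 words passed. At an unadjusted p under 0.05 (Fisher's exact test), 190 words were less frequent and 328 more frequent. With every word of 7 bases tested, some pass this cutoff by chance. None of the 328 passed the adjustment, and of the 190 only GGTTCGA did. The adjustment judges words 1 by 1, so it cannot decide on a general lean in sequence, which was not tested. Windows of the same length, centred 500 bp to either side of the summits, held GGTTCGA in 1.03% of cases for combined-only and 1.14% for conservative peaks.

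At tRNA genes GGTTCGA was in 15 of 46 combined-only windows (32.6%) and 150 of 294 conservative windows (51%). With GGTTCAA counted too, 21 of 46 combined-only windows (45.7%) and 185 of 294 conservative windows (62.9%) had one or the other. Among the tRNA sequences printed above, C05G6.t1 holds the first form, T08A9.t1 the second and D1009.t1 neither. Without peaks at tRNA genes no word passed the adjustment. In windows of the same length before the start of protein-coding genes, 315 of 19973 windows (1.58%) held either form. A match is a description of letters, and nothing about a factor follows from it or from its absence.

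Genes annotated only as ncRNA were at 59 combined-only peaks (15.1%) against 256 conservative peaks (23.4%; adjusted p = 0.00156, exact test), but 29 of the 59 also had a tRNA gene, and among peaks away from tRNA genes the shares were 8.72% and 9.90% (adjusted p = 1, exact test). Small nuclear RNA (snRNA) genes, whose products serve mainly in splicing, were at 6 combined-only peaks (1.54%) against 16 conservative peaks (1.47%; adjusted p = 1, exact test). Of those reported here, F38E11.10 had a signal of 69.6, H27M09.6 had 67.3, and sup-39, which shares its peak with an entry named mir-1831, had 64.4. The remaining classes were lincRNA (3 against 3 peaks), piRNA (5 against 9), pseudogenes (12 against 24), microRNA (0 against 5) and ribosomal RNA (0 against 0), none of which passed the same test.

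Named members of these classes varied in which column was high. The snoRNA genes after Y55F3BR.9 were F09G2.14 (signal 82.8, columns 56.6 and 26.5) and F26D10.24 (67.3, with 45.4 and 9.19). The lincRNA genes were linc-90 and Y9D1A.1 (55.2, with 44.3 and 23.7). After 21ur-7377 the piRNA genes were 21ur-6987 (79.8, with 47.3 and 30.6), 21ur-12279 (77.5, with 29.7 and 47.1) and 21ur-14449 (75.3, with 46.8 and 25.7). Column 15 was the higher value at all 3 snoRNA peaks and at 4 of 5 piRNA peaks. The strongest pseudogene peaks were at sls-2.19, which shares the peak of 21ur-7377, C01G10.13 (88.3), T07D10.10 (84.2) and B0391.10 (81.5).

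Coding exons held a larger share of the combined-only summits. They took 104 combined-only summits (26.7%, 22.3 to 31.4%) against 131 conservative summits (12%; adjusted p = 4.60e-10 over 5 annotation classes, Fisher's exact test). Between genes lay 165 combined-only summits (42.3%) against 571 conservative summits (52.3%; adjusted p = 0.00192, exact test). Introns held 94 (24.1%) against 323 (29.6%; adjusted p = 0.0699, exact test), 5′ UTRs 10 against 22 and 3′ UTRs 17 against 45. Among peaks away from tRNA genes the coding exon shares were 30.2% and 16.2% (adjusted p = 7.86e-07, exact test).

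This difference too was smaller against weaker peaks. Of the 546 weakest conservative summits, 22% were in coding exons, and the difference of 4.69 points did not pass the test (adjusted p = 0.515, exact test), nor did that of −1.65 points between genes (adjusted p = 1, exact test). Among peaks found in the list of replicate 1, coding exons held 9 of 62 combined-only summits (14.5%) against 12 of 436 conservative summits (2.75%; adjusted p = 0.00179, exact test). The list of replicate 2 held 5 combined-only peaks, none of them in a coding exon, which is too few to compare.

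Combined-only peaks in coding exons had more even columns. Their medians were 40.5 in column 15 and 29.7 in column 19, a median ratio of 1.41, against 46.6 and 27.7 and a ratio of 1.69 for those between genes. Coding exons held 35% of the combined-only peaks with a ratio of 1 or lower and 18.4% of those with a ratio over 2. Conservative peaks had shares in the same order, with 14.9% and 3.03%. Of the 104, 49 were within a promoter window, and their summits lay a median of 680 bp from the nearest protein-coding start. Summits in 3′ UTRs were the opposite case, with column 15 higher at 16 of 17 and 9 of 17 in the list of replicate 1.

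**Figure D3:**
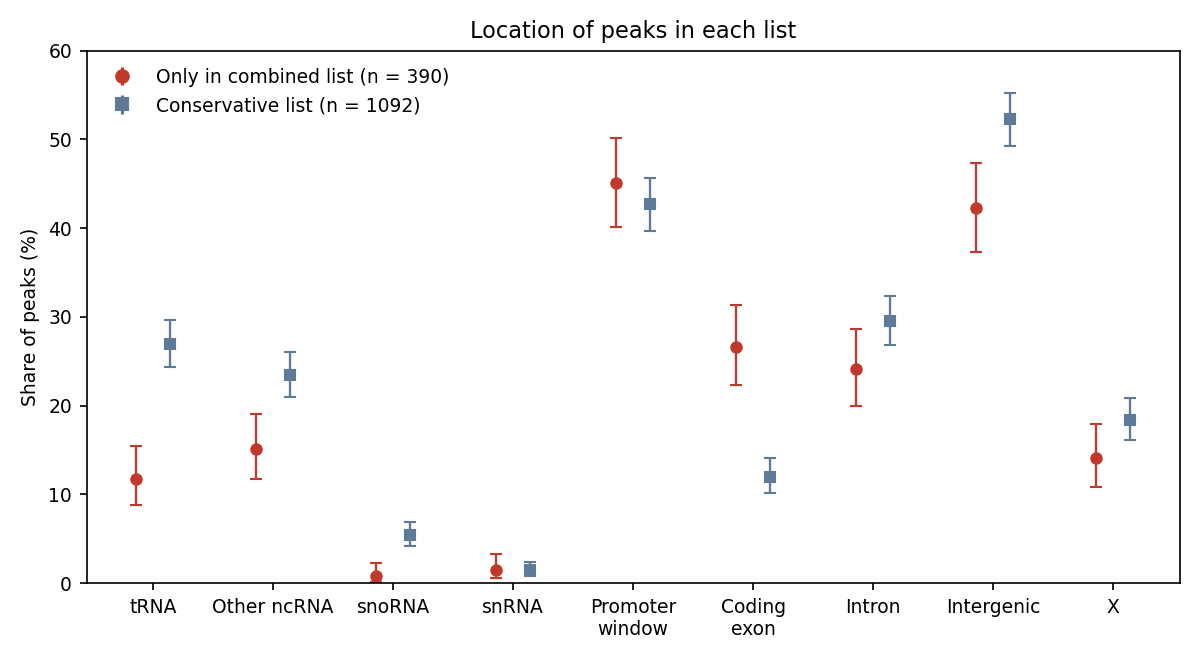
Share of peaks (%) in each class, with exact 95% binomial intervals over peaks, for 390 combined-only and 1092 conservative peaks. Noncoding genes are within 200 bp of the summit; combined-only shares are lower at tRNA, other ncRNA and snoRNA genes and between genes, and higher in coding exons, at 26.7% against 12%.

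No chromosome's share passed the test. Combined-only peaks numbered 75 on I, 64 on II, 66 on III, 70 on IV, 60 on V and 55 on X. The X share was 14.1% against 18.4% for conservative peaks (adjusted p = 0.365 over 6 chromosomes, Fisher's exact test), beside the 17.7% of the assembly's length that X makes up. On X, 20 of 55 combined-only peaks (36.4%) were at tRNA genes against 143 of 201 conservative peaks (71.1%). On the autosomes the shares were 7.76% and 16.9%. With peaks at tRNA genes left out, X held 10.2% of combined-only and 7.27% of conservative peaks, so the order turned (adjusted p = 0.477, exact test).

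Promoters of protein-coding genes, taken as 1000 bp upstream to 500 bp downstream of a transcript's 5′ end, were about as frequent in both lists. They held 176 combined-only summits (45.1%, 40.1 to 50.2%) against 466 conservative summits (42.7%; p = 0.405, two-sided Fisher's exact test). The median distance to the nearest protein-coding start was 878 bp for combined-only and 976 bp for conservative summits. Unlike the tRNA share, the promoter share did not climb with signal in the conservative list, at 42.1%, 40.7%, 44% and 44% over its 4 bins.

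A combined-only summit lay in a promoter window of 227 of 19973 protein-coding genes (1.14%) and a conservative summit in one of 564 genes (2.82%), with 14 genes in both counts. A summit between divergent genes marks both, and the peaks do not say which gene, if any, is regulated. Gene lists drawn up by symbol were read against these shares, without a test.

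Histone genes, which package DNA, stood at 10 of 84 (11.9%) for combined-only and 6 of 84 (7.14%) for conservative summits, with 1 gene in both counts. The strongest of the 10 was htz-1, followed by his-59 and his-60, which share 1 peak in a coding exon (signal 77.4, columns 73.3 and 22.7). Translation factors and aminoacyl-tRNA synthetases, which charge tRNAs and run the ribosome, stood at 9 of 76 (11.8%) against 5 of 76 (6.58%). Their strongest peaks were at eef-1G, an elongation factor subunit (96.6, with 56.2 and 27.6), and fars-3, a phenylalanyl-tRNA synthetase subunit (79.8, with 61.6 and 18.1). More genes had a combined-only than a conservative summit in these lists, among proteasome and ubiquitin genes and among nuclear hormone receptors, and in no other list.

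In other lists fewer genes had a combined-only than a conservative summit, as over all protein-coding genes (227 against 564, or 1.14% and 2.82%). The counts below are to be read beside that difference, and a lower combined-only count alone is no lean of a list. Cytosolic ribosomal protein genes had 4 of 65 against 10 of 65, with rpl-36 (89.8, columns 54.7 and 14.2) and rpl-11.1 (80.5, with 63.4 and 18.7) the strongest. The ribosomal list goes by symbol pattern and missed rps-3A, the nearest start to a further combined-only peak (75.8). That peak was counted under ifet-1 among the translation factors. Heat shock protein and chaperone genes had 2 of 73 against 9 of 73. The 2 with a combined-only summit were hsp-1 (79.4), which also had a conservative summit and is in both counts, and hsp-110 (73.7). That list goes by symbol and so does not hold F44E5.4 and F44E5.5, whose promoter windows hold the peak with a signal of 112. Germline and meiosis genes had 6 of 155 against 16 of 155, led by sas-5, a centriole assembly factor (81.6). DNA replication and cell cycle genes had 6 of 121 against 13 of 121, led by the condensin gene smc-4 (77.1) and the ligase gene lig-4 (75.1). Chromatin regulators had 5 of 150 against 9 of 150, with 1 gene in both counts, led by attf-2 (82.8) and the SWI/SNF subunit gene swsn-3 (82.4).

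Proteasome and ubiquitin genes had 5 of 102 against 4 of 102, led by the ubiquitin hydrolase gene ubh-4 (77.6) and the proteasome subunit gene pas-1 (75.6). The pas-1 peak is also that of rpoa-12 below, with its summit 36 bp from the rpoa-12 start and 650 bp from that of pas-1. Likewise hsp-110 shares its peak with rpn-3, and ekl-4 shares its peak with rps-20. Such a peak counts in more than 1 list. Nuclear hormone receptor genes had 5 of 269 against 3 of 269, led by nhr-49 (82.0), a regulator of fat metabolism, and nhr-66 (79.1). Splicing factors had 2 of 74 against 7 of 74, mog-3 (82.4) and hrpk-1 (70.9). The general transcription machinery had 2 of 102 against 5 of 102, rpoa-12 (75.6) and taf-4 (68.9), and small RNA pathways 2 of 89 in both lists, ekl-4 (74.7) and mut-15 (72.1). For mog-3 and nhr-49 column 19 was the higher value, at 53 against 32 and 43.6 against 34.1.

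Some large lists were rarely met. Chemoreceptors had 1 of 1369 genes (0.0730%), srw-95, against 14 of 1369 for conservative summits. Homeobox, zinc finger and other transcription factors, nuclear hormone receptors apart, had 0 of 224 against 5 of 224, and F-box genes 0 of 354 in both. A single combined-only gene each was found among mitochondrial ribosomal proteins (mrps-12), mitochondrial respiration (atp-1), collagens and cuticle (col-89), C-type lectins (clec-111) and detoxification enzymes (cyp-31A5). Vitellogenins, which make yolk, are a list too small to read, with 0 of 6 against 2 of 6. Neuropeptides and major sperm proteins had none in either list.

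**Figure D4:**
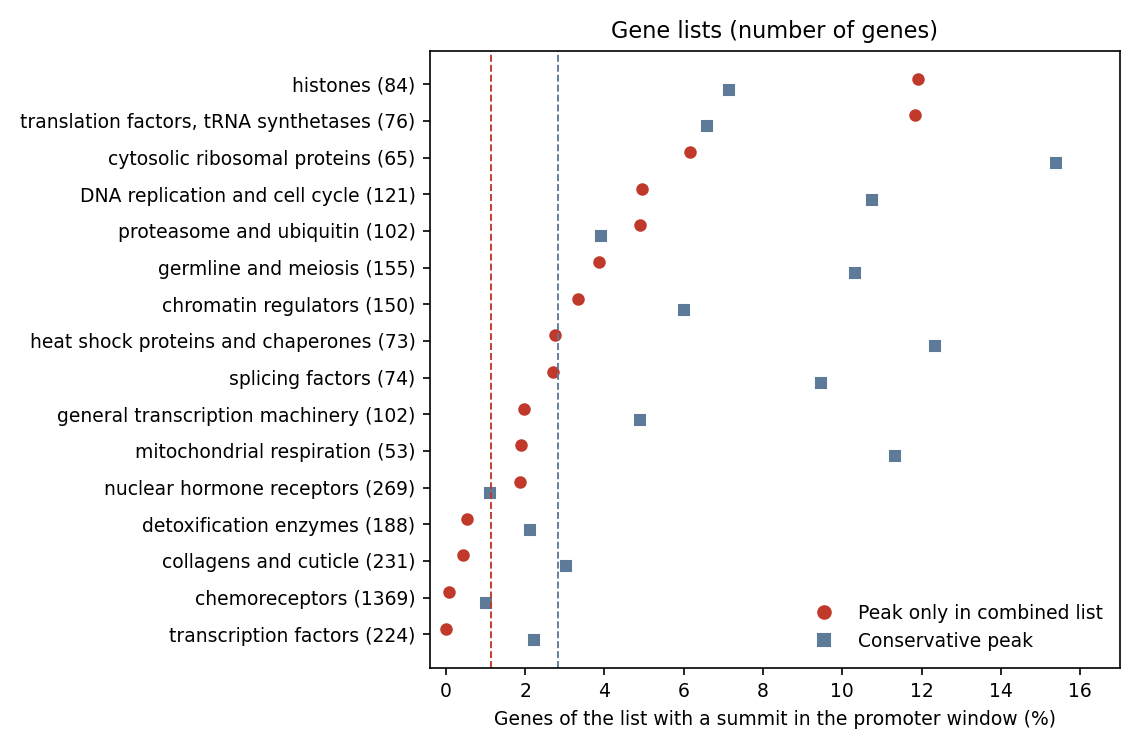
Share of each list's protein-coding genes (%) with a combined-only summit (circles) or a conservative summit (squares) in a promoter window, for lists with at least 5 such genes in all. Dashed lines give the shares over all 19973 genes, 1.14% and 2.82%; histones and translation genes have the highest combined-only shares, 11.9% and 11.8%.

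The promoter window of F44E5.4 printed above holds a run of alternating TTC and GAA triplets, each 2 bases apart, the pattern known as a heat shock element. The search was made after that sequence had been seen. At least 3 such triplets in a row, on either strand, were in 9 combined-only windows (2.31%) against 14 conservative windows (1.28%), and in 112 of 19973 windows of the same length upstream of protein-coding genes (0.561%). The strongest of the other 8 were near ttm-5, fbxa-215 and nhr-247, at 1277 to 4545 bp from those starts. Base composition was close in both lists, with a median GC content of 47.5% in combined-only and 49.5% in conservative windows.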

How the data were processed

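The libraries of biological replicates 1 and 2, of 1 group, were analysed from peak lists on ce11. Per the deposited README texts, the authors derived each list from alignments and a control file. Which aligner, peak caller and filters they used is not given in the sources used here. The deposited signal of a peak is the authors' value, with its scale not stated. The deposited score is a transform of the IDR ending at 1000, with a lowest value of 830 in the combined list. From the deposited ranked lists, the −log10 values of the IDR were taken and converted. By these values the lists matched an IDR limit of 0.01. The files hold no read counts, so depth is unknown, and intervals (exact Clopper-Pearson, 95%) cover the counting of peaks only.

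Peaks were joined to the ranked lists by position. All combined-only peaks were 276 bp wide. Genes came from the Ensembl release 115 annotation, sequence and tRNA products from RefSeq, both of WBcel235. Of the series' IDR lists, the single-replicate ranked lists were not used. Shares were compared by two-sided Fisher's exact tests, adjusted by Benjamini-Hochberg within 9 noncoding classes, 6 chromosomes, 5 annotation classes and all words, with a threshold of 0.05. The word test was checked on simulated data. Alternatives were other overlap rules, a stricter IDR of 0.005, merging within 1000 bp, other windows, subsets of the conservative list, peaks without tRNA genes and each replicate's list alone. The members, the gene lists, by symbol pattern, and the tests were chosen with earlier results of these data known; 3 lists were tightened to drop unrelated symbols after first use. Coding exons were made a main result after their values were seen. Genes named are the nearest starts of the 12 strongest peaks, the 4 strongest per noncoding class, the 2 strongest per gene list, and the extremes of ratio and overlap, apart from items not reported here. Software was Python 3.11.15, numpy 2.4.6, pandas 2.3.3, SciPy 1.17.1 and matplotlib 3.10.9.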

Additional observations from a re-analysis of the deposited data

How the results depend on the processing

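Differences are combined-only minus conservative, in percentage points. The differences reported at tRNA genes (−15.1), snoRNA genes (−4.63) and coding exons (14.7) passed the test under each overlap rule and with neighbouring peaks merged, and 46 recomputed main values kept both direction and call, while 10 lost the call, 10 turned in direction, 9 word counts moved and 1 gained a call. Against the 546 weakest conservative peaks the values were −3.22 at tRNA genes, −1.79 at snoRNA genes, 0.183 on X and 4.69 in coding exons, with 0 words; none passed. Against the conservative peaks that overlapped no combined peak they were 4.65, −2.80, 3.39 and 3.45, with 0 words; none passed. This last alternative was chosen after seeing the data, as were all for coding exons. With an IDR of 0.005 the snoRNA difference was −5.17 (adjusted p = 0.108, Fisher's exact test), that at snRNA genes −0.604, and 0 words were called. Against only the conservative peaks that overlapped a combined peak, introns passed at −6.10 and 3 words were called. For summits inside the gene, the snoRNA difference was −0.476 and did not pass. Without tRNA peaks the promoter difference was −0.321 and that on X 2.91, with 0 words. Windows of 25 bp to either side gave 0 words and words of 6 bases gave 5. In the list of 1 replicate at a time, differences ranged over −15.5 to 4.96 at tRNA genes, −10.6 to −7.56 at snoRNA genes, −28.2 to 0.429 in promoters, −6.58 to 17 on X, −10.9 to 53 in introns, −1.09 to 11.8 in coding exons, −3.31 to 10.4 at ncRNA genes and −1.82 to 1.39 at snRNA genes, with 0 words in each; the extremes came from 62 and 5 combined-only peaks. The cause of these changes was not tested, also where an alternative kept fewer peaks. No paired analysis was possible because the series has 1 group and the tests compare peaks.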

Other observations

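The 112 conservative peaks that overlapped no combined peak were the mirror image by IDR, and their signals were close to those of the combined-only peaks. The combined-only peaks had a median signal of 73.9, against 74.3 for these 112. Column 15 had medians of 43.3 and 42.6 for combined-only and these conservative peaks, while column 19 had medians of 28.4 and 36. The ratio of the columns exceeded 2 at 114 of 383 combined-only peaks and at 3 of these 112.

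The 5 combined-only peaks in the list of replicate 2 were at the tRNA gene B0491.t1 (26 in column 15 and 67.3 in column 19), near the synaptotagmin gene snt-7 (31.0 and 56.5), near Y51F10.4 (30.4 and 57.8), in ajm-1 (18.3 and 49.1) and near the phosphatase subunit gene ppfr-1 (31.1 and 38.6). They were singled out after their values were seen. The 49 combined-only peaks with a library IDR above 0.1 included the peaks at rpl-36 (0.498) and fars-3 (0.199).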
